A study of Mus musculus with 2 samples.

Results

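The miR-379 to miR-410 cluster is a dense run of microRNA genes at the distal end of the Dlk1-Dio3 domain on mouse chromosome 12. The 30 genes described here lie on the plus strand, from Mir379 to Mir410 and Mir3072. They are 30 of the 1973 microRNA genes counted in whole liver of B6NCrl mouse embryos at embryonic day 14.5. Position and strand alone do not give this set. Mir654, Mir453, Gm27379 and Mir544, plus-strand genes of the same interval with few or no counts, are not in it. There was 1 group of 2 libraries, replicate 1 and replicate 2, made from total RNA and restricted to RNAs under 30 nucleotides. The labels name no genetic change and no treatment. They call each sample a liver of 1 pup and give different collection days, yet they also name a pooled sex and list a single donor ID. Whether the samples are independent animals is therefore uncertain, and p-values between them measure counting error between 2 libraries only. The samples are called the 2 livers here.

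Dlk1-Dio3 is an imprinted domain: its protein-coding genes, among them Dlk1, are expressed from the chromosome inherited from the father, and its long noncoding RNAs and microRNAs from the chromosome inherited from the mother. Its microRNAs fall into a proximal group, around Meg3 and the antisense strand of Rtl1, and the distal group described here, part of which lies within the noncoding gene Mirg. A microRNA is cut from a hairpin whose 5p and 3p arms can each become a mature strand of about the length sequenced, and the seed, bases 2 to 8 of that strand, pairs with target messenger RNAs. The distal cluster is found in placental mammals and is best known from neurons, where miR-134 limits the size of dendritic spines, and mice without it have been described as failing to adapt their liver metabolism at birth.

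The 30 genes span 38.9 kb, chr12:109709060-109747960 in mm10. RefSeq for GRCm38.p6, the same assembly, held a hairpin for 29 of them and 56 mature strands, with both arms for 26 members and a single arm for Mir376c, Mir487b, Mir539 and Mir485. The hairpin of Mir666 was the exception. In the sequences printed here, written 5′ to 3′ as RNA, capitals mark the seed. The counts do not separate the arms of a hairpin, so both arms are shown for a gene where RefSeq has them.

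The 56 strands carried 52 different seeds. Only 4 seeds occurred in more than 1 member, each in a pair. These 4 pairs are shown because, among the 56 strands, no other members had an identical seed. Arms missing from RefSeq could not be compared, and matches to only part of a seed were not tested. The 3p strands of Mir379 and Mir411, neighbours at the start of the cluster, were nearly the same along their whole length, with 20 of 22 bases identical. The other pairs matched less beyond the seed: 10 of 20 bases for miR-379-5p and miR-1193-5p, 14 of 21 for miR-1197-5p and miR-758-5p, and 16 of 21 for miR-494-5p and miR-410-5p.
miR-379-3p: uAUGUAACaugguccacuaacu
miR-411-3p: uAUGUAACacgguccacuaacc
miR-379-5p: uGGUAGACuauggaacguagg
miR-1193-5p: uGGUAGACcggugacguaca
miR-1197-5p: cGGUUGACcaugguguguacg
miR-758-5p: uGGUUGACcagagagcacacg
miR-494-5p: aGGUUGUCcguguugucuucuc
miR-410-5p: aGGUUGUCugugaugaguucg

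A further 12 strands shared their seed only with a microRNA outside the 30 genes, and 36 shared it with no other gene of the table. Examples of the former are miR-411-5p with miR-7229-5p, miR-329-3p with miR-362-3p, miR-410-3p with miR-344d-3p and miR-344e-3p, and miR-376c-5p with miR-376b-5p, whose own gene lies in the cluster but was not analysed here. The strands of the other members among the 5 highest, together with the 3p strands of 2 pairs that are alike outside the seed, are shown next. Between miR-300-3p and miR-381-3p, 19 of 22 bases were identical, and between miR-543-3p and miR-495-3p 18 of 22, although the seeds of each pair differed. Strands of Mir154 and Mir369, both among the 5 highest genes, matched at 17 of 21 bases of their 3p arms, also with different seeds.
miR-411-5p: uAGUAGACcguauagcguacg
miR-154-5p: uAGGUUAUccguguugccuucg
miR-154-3p: aAUCAUACacgguugaccuauu
miR-369-5p: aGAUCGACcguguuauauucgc
miR-369-3p: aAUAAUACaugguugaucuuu
miR-487b-5p: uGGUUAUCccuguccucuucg
miR-300-3p: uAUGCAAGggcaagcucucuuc
miR-381-3p: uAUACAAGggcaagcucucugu
miR-543-3p: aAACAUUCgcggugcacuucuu
miR-495-3p: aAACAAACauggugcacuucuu

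At base 1, the only position compared, the strands differed from other microRNAs of the table mainly in C and A. Of the 56 strands, 42.9% began with U, against 41.2% of the 1682 strands of other genes, whereas 37.5% began with A, against 25.1%, and 7.14% with C, against 20.9%. These are descriptions of the reference sequences with no test.

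A short run of 6 bases, UCGCUU, recurred in the hairpins of the cluster. It was found in 10 of 29 member hairpins (34.5%) and in 5 of 976 hairpins of other genes (0.512%), or 1.49% of all 1005. In 8 of the 10 members it lay between the arms or across their inner edges, on the side of the hairpin's loop. It was chosen after the sequences had been seen, as were 3 other runs searched, on the RNA strand only. GUGACG was in 6 member hairpins (20.7%) and 5 others (0.512%), 1.09% of all. UACUUG was in 9 (31.0%) and 17 others (1.74%), 2.59% of all, and GAGGUU in 7 (24.1%) and 38 others (3.89%), 4.48% of all. UACUUG and GUGACG overlap by 1 base in Mir382. The hairpins of 4 members with UCGCUU in capitals show its place: Mir543 (chr12:109717258-109717333), Mir382 (chr12:109733771-109733846), Mir154 (chr12:109738433-109738498) and Mir410 (chr12:109743715-109743795), all on the plus strand of mm10.
Mir543: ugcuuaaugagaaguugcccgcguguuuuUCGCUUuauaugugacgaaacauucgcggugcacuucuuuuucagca
Mir382: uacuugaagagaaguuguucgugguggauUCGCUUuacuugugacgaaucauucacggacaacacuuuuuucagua
Mir154: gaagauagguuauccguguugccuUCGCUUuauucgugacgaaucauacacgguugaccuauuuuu
Mir410: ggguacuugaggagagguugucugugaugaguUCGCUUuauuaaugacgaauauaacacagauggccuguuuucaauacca

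Levels are in CPM, the standard scaling of read counts by library size, computed here from reads on the gene's own strand with totals of 2353946 counts in replicate 1 and 3132763 in replicate 2. Errors written with ± are SDs between replicates 1 and 2 (n = 2). The 10 genes with this run ranged in level from 342 CPM for Mir377 to 15808 CPM for Mir154. Their median was 1834 CPM, against 598 CPM for the 19 hairpins without it, and the 2 sets overlapped over most of that range.

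As a whole the cluster took a large part of the reads counted for microRNA genes. It held 310480 counts in replicate 1 and 438962 in replicate 2, which were 13.2% (Clopper-Pearson 95% interval 13.1 to 13.2) and 14.0% (14.0 to 14.1) of the totals, or 13.6% ± 0.581 on average. The totals leave out reads mapped to several places, 34.0% and 33.1% of all reads. The cluster's share of all microRNA reads is therefore not known. All 30 genes had at least 10 counts in each liver, and all but Mir1197 had at least 100. Mir654, Mir453, Gm27379 and Mir544, which had fewer than 10, are not in the list. Full detection and the median level of the members therefore depend partly on the choice of genes. No read was counted on the strand opposite to any of the 30. The median member lay at 1077 CPM, and the median of the 302 other genes with at least 10 counts in each liver at 142 CPM. Members made up 8 of the 50 highest genes, and 2 of those, Mir411 and Mir154, were among the 20 highest.

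Counts were concentrated in a few genes, and in almost the same proportions in both livers. Mir411 alone held 29.2% of the cluster's counts in replicate 1 and 28.8% in replicate 2. The 3 highest genes together held 52.2% ± 0.164, the 5 highest 69.4% ± 0.543 and the 10 highest 89.7% ± 0.349. These shares and ranks are among the listed members and leave out reads at other loci of the cluster, given below. There were 5 genes at 10000 CPM or more, 10 between 1000 and 10000, 13 between 100 and 1000, and 2 below 100. The highest member stood 6125-fold above the lowest. A mature strand is read whole, so levels were compared without division by hairpin length. Divided by the annotated length, no member moved by more than 2 places in the order.

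**Figure D1:**
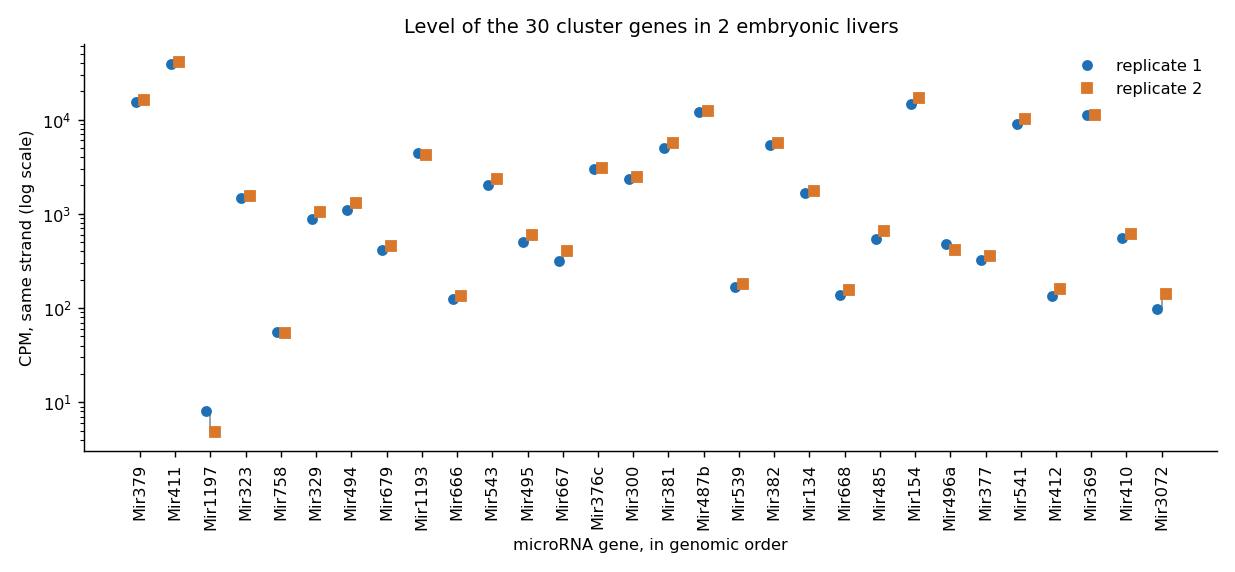
Level (CPM, log scale) of each of the 30 cluster genes in genomic order, with a circle for replicate 1, a square for replicate 2 and a grey line joining them. High and low genes alternate along the cluster, from Mir411 at about 39382 CPM to Mir1197 at 6.43, while the 2 livers lie close together at nearly every gene.

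Mir411 had 38455 CPM in replicate 1 and 40310.1 in replicate 2, and was the third highest gene of the whole table. Mir154, the namesake of the family to which many hairpins of the cluster are assigned, had 14693 and 16923 CPM. Mir379, which opens the cluster, had 15499 and 16017 CPM. Mir411 stood apart from both, whereas the ranges of Mir154 and Mir379 overlapped and their order was swapped between the livers.

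Mir487b followed with 12113 and 12192 CPM, and Mir369 with 11219.9 and 11195 CPM. Mir541, whose microRNA has been studied in neurite growth, had 8936 and 10243 CPM. These 3 genes kept their order in both livers without overlap, and Mir369 differed least between the livers of the 10 highest genes (11208 CPM ± 17.4). Among the next 4, Mir382 (5371 and 5674 CPM) and Mir381 (4995 and 5589 CPM) overlapped in range but kept their order. Mir1193 had 4369.7 and 4172 CPM, and Mir376c 2987 and 3027 CPM, each clear of its neighbours in the order.

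Below these lay, in descending order of mean level, Mir300, Mir543, Mir134, Mir323, Mir494, Mir329, Mir485, Mir410, Mir495, Mir496a, Mir679, Mir667, Mir377, Mir539, Mir412, Mir668, Mir666, Mir3072, Mir758 and Mir1197. In the full order, 9 of the 29 pairs of neighbours had overlapping ranges over the livers, and the order of 6 of these pairs was swapped. Besides Mir154 with Mir379 and Mir382 with Mir381, the overlapping pairs were Mir300 with Mir543, Mir485 with Mir410, Mir410 with Mir495, Mir496a with Mir679, Mir667 with Mir377, Mir412 with Mir668 and Mir666 with Mir3072. In both livers 18 of the 30 genes had the same rank, and across the genes the levels of the 2 livers had a Spearman correlation of 0.997 (n = 30 genes, which share their libraries and are not replicates).

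At the bottom, Mir1197 had 19 and 15 counts, or 8.07 and 4.79 CPM, above the 1.27 and 0.958 CPM that a count of 0 would allow. Mir758 had 55.7 and 54.3 CPM. The 2 least counted genes thus share the seed of their 5p strands, and they lie close together, at chr12:109712317-109712436 and chr12:109712810-109712890, with Mir323 at 1461 and 1539.5 CPM between them.

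Genes with a common seed did not lie at a common level. Mir411 was 2.50-fold above Mir379, and the genes behind the seed AUGUAAC summed to 53954 and 56327 CPM. Mir379 was 3.69-fold above Mir1193, Mir758 was 8.55-fold above Mir1197 and Mir494 (1084 and 1301 CPM) was 2.03-fold above Mir410 (559 and 614 CPM). Because the arms were not counted apart, these folds compare genes and not the strands that carry the seed. Pairs alike outside the seed, but with different seeds, ran from close to far apart in level. Mir154 was 1.41-fold above Mir369, Mir381 2.20-fold above Mir300 and Mir543 3.97-fold above Mir495. The 5p strands of Mir154 and Mir494 matched at 18 of 21 bases, shifted by 1, and Mir154 was 13.3-fold above Mir494. Those of Mir496a and Mir1197 matched at 17 of 21, and Mir496a was 68.7-fold above Mir1197.

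Level did not follow position. The Spearman correlation between the order of the genes and their level was -0.06 (n = 30 genes). Adjacent genes differed by a median of 11.7-fold, against 7.14-fold over all 435 pairs, and 15 of the 29 adjacent pairs differed by more than 10-fold. The steps stayed large at short range: over the 10 adjacent pairs less than 500 bases apart, the fold ran from 2.30 to 233, with a median of 12.9.

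Individual neighbours show the size of these steps. Mir679 and Mir1193, with 20 bases between them, differed by 9.82-fold. Mir412 (136 and 159 CPM) and Mir369, with 49 bases between them, differed by 76.0-fold. Mir1197 and Mir323, 71 bases apart, differed by 233-fold. In each of these pairs the higher gene was the same in both livers. Adjacent here means next among the 30 members: in 5 of the 29 pairs, none of them under 500 bases apart, another annotated microRNA gene lies between. The step from Mir411 to Mir1197, the largest, passes over Mir299a and Mir380.

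The annotation places 12 of the 30 genes within Mirg, from Mir382 to Mir3072, of which 4 lie in an exon, 5 across an exon edge and 3 in an intron. The 18 upstream members lie outside other annotated genes. The median level was 592 CPM within Mirg and 1346 CPM upstream, with wide overlap, since Mir154, Mir369 and Mir541 lie in Mirg. The 3 intronic genes, Mir154, Mir496a and Mir541, had a median of 9589.8 CPM and the 9 at exons one of 587 CPM. These sets overlapped too: intronic Mir496a had a mean of 442 CPM, and Mir369 and Mir382, at exon edges, had 11208 and 5522 CPM.

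Hairpin composition varied widely. GC content ran from 29.1% in Mir376c to 72.3% in Mir3072, with a median of 43.4%, and had a Spearman correlation of -0.35 with level (n = 29 genes). Sharing of sequence between hairpins was limited. None of the 56 mature strands was found whole in another of the 1005 hairpins, and 1 strand, miR-376c-5p, shared 18 bases with the hairpin of Mir376b. Stretches of at least 20 bases linked Mir411 with Mir758, Mir376c with Mir376b and Mir487b with Mir376b. They covered at most 12 bases of a mature strand in Mir411, 9 in Mir758, 18 in Mir376c and 0 in Mir487b. The levels of these 4 members could be less certain, but whether reads were lost there was not tested. Of the 26 left without them, Mir154, Mir379, Mir369, Mir541 and Mir382 were the highest, in that order.

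Most cluster genes had a slightly higher share in replicate 2. The ratio of the summed counts, replicate 2 over replicate 1, was 1.06 (exact 95% interval 1.06 to 1.07). The ratio was above 1 for 25 genes and below 1 for 5, with a median log2 ratio of 0.12, against 0.03 over all 332 genes tested. By the two-sided exact binomial test with Benjamini-Hochberg adjustment over those 332 genes and a threshold of 0.05, 20 of the 30 members differed between the libraries, against a background of 41.9% of all genes tested. Of these, 18 were higher in replicate 2 (background 23.5%) and 2, Mir1193 and Mir496a, were higher in replicate 1 (background 18.4%). The differences were small: among the 20, the ratios lay between 0.867 and 1.44. Large counts make small ratios pass this test, and the members have a higher median level than the other genes tested.

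**Figure D2:**
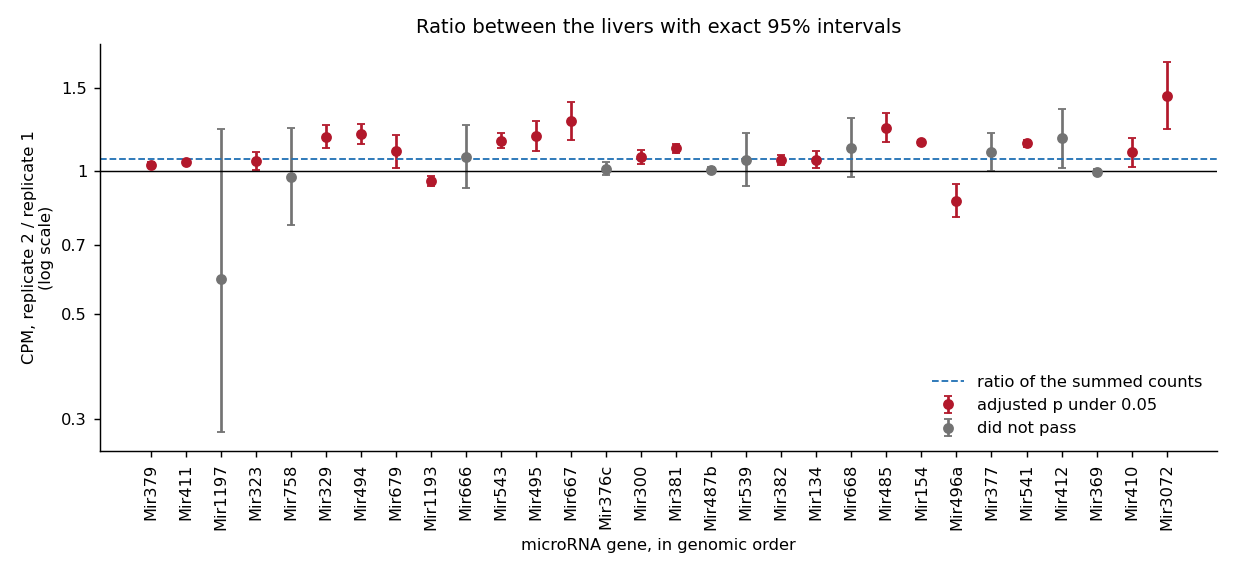
Ratio of CPM, replicate 2 over replicate 1 (log scale), for the 30 genes in genomic order, with exact 95% intervals, in red where the adjusted p was under 0.05 and in grey where it was not. The black line marks 1 and the dashed line the ratio of the summed counts, 1.06, which 13 of the intervals include.

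Mir3072, the last gene of the cluster, had the largest ratio. It had 98.6 CPM in replicate 1 and 142 in replicate 2, a ratio of 1.44 (interval 1.23 to 1.70, exact binomial adjusted p = 1.97e-05). Its hairpin also has the highest GC content of the cluster. It lies 4082 bases beyond Mir410, a gap between adjacent members exceeded only by that between Mir539 and Mir382. Mir667, with the second highest GC content, had 315 and 403 CPM and a ratio of 1.28 (1.17 to 1.40). Over all members, though, the Spearman correlation of GC content with the ratio was 0.09 (n = 29 genes), and it was also 0.09 over 259 genes tested outside the cluster.

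Mir485, whose microRNA acts at synapses, had 534 and 662 CPM, a ratio of 1.24 (1.15 to 1.33). Mir494 had a ratio of 1.20 (1.14 to 1.26). Mir495 had 499.6 and 593 CPM and a ratio of 1.19 (1.10 to 1.28). These 5 genes held rank 15 or lower in level, and among the 5 highest genes only Mir154 came near them, at 1.15 (1.14 to 1.17, exact binomial adjusted p = 2.69e-92).

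In the other direction, Mir496a had 473 and 410.2 CPM, a ratio of 0.867 (0.799 to 0.940, exact binomial adjusted p = 0.00168). Mir1193 had a ratio of 0.955 (0.930 to 0.980, exact binomial adjusted p = 0.00155). Mir496a lies in an intron of Mirg between Mir154, which was higher in replicate 2 (1.15), and Mir377, which did not pass (1.10, exact binomial adjusted p = 0.0862). Mir1193 lies 20 bases beyond Mir679, whose ratio of 1.10 passed narrowly (exact binomial adjusted p = 0.0456) and did not pass with a minimum of 1 count or none, regardless of strand, or by TMM and DESeq2 scaling.

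The next lowest ratios did not pass the test. That of Mir758 was 0.975 (0.772 to 1.23), that of Mir369 0.998 (0.982 to 1.01) and that of Mir487b 1.01 (0.991 to 1.02). The last 2 rest on at least 26411 counts in each library, so their intervals are narrow and lie below the ratio of the summed counts, whereas Mir1197, at 0.593 (0.281 to 1.23), was too thinly counted for a difference of that size to be detected. The remaining genes that did not pass were Mir666, Mir376c, Mir539, Mir668, Mir377 and Mir412, with ratios between 1.01 and 1.18.

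The members did not all share the ratio of their sum. The intervals of 13 included it, those of 10 lay above and those of 7 below, and the intervals of 8 included 1. Ratios of adjacent genes differed by a median of 1.08-fold, against 1.10-fold over all pairs of members. The median ratio was 1.11 within Mirg and 1.07 upstream, with overlapping ranges. Folding energy per base of the hairpin had a Spearman correlation of -0.38 with the ratio (n = 29 genes), as a description of these libraries.

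**Figure D3:**
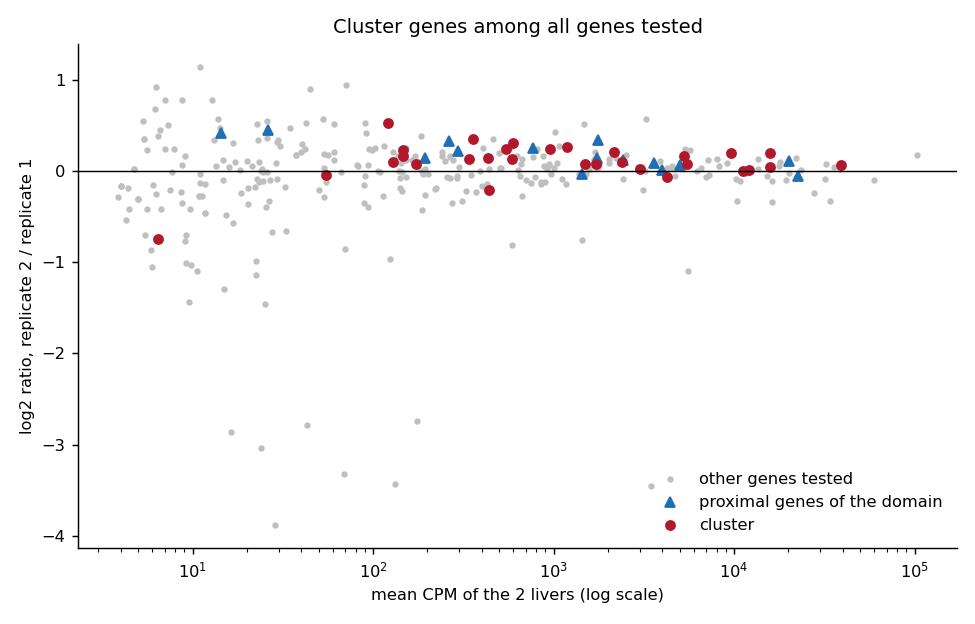
Log2 ratio, replicate 2 over replicate 1, against mean CPM (log scale) for the 332 genes tested, with the 30 cluster genes as red circles, proximal genes of the domain as blue triangles and all others in grey. All cluster genes but Mir1197 lie between log2 ratios of -0.21 and 0.53, within the range of the other genes.

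Markers of cell types in the liver moved between the livers too. Mir122, the main microRNA of hepatocytes and the highest gene of the table, had 97348 and 110370.6 CPM, and Mir192 4467 and 4642, so both liver cell markers were higher in replicate 2. The red cell genes Mir451a (38020 and 30243 CPM) and Mir144 (11594 and 9272 CPM) were lower there, as were Mir126a of blood vessels (61517 and 57654 CPM) and Mir223 of white cells (10498 and 9885 CPM). Not all blood cell genes moved this way. Mir486 of red cells (mean 460 CPM, log2 ratio 0.348) was higher in replicate 2. So was Mir155 of white cells (mean 90.9 CPM, log2 ratio 0.419). Of the connective tissue genes, Mir143 was lower in replicate 2 (16834 and 15638 CPM), Mir214 was higher (873 and 1176 CPM, ratio 1.35) and Mir145a did not pass (241 and 260.2 CPM). Mir206 of muscle had 31.0 and 14.0 CPM, 2.21-fold higher in replicate 1, and Mir1a-1 and Mir133a-1 were at 0.

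Of 8 neuronal genes 6 had a row and 3 had at least 10 counts in each liver. All 3 had a ratio below 1, but of very different size. Mir137 had 242 and 22.3 CPM, 10.8-fold higher in replicate 1, and Mir219a-2 had 54.0 and 3.51 CPM, 15.4-fold higher there. Mir128-1, with 150.0 and 132 CPM, did not pass and made up most of the list's sum in replicate 2 (446 and 158 CPM in all). The list does not hold all neuronal microRNA genes. Outside it, Mir128-2 was higher in replicate 1 (log2 ratio -0.67, exact binomial adjusted p = 0.0158), and Mir219a-1 did not pass (log2 ratio -0.10). Mir124a-2 and Mir9-2 were at 0 in both livers and Mir124a-1 had 0 and 1 count. Because the mature strands of miR-124, miR-9, miR-1 and miR-133 also come from other loci and reads mapping to several places were left out, these low counts do not show whether neurons or muscle were present. The part of these cell types in the ratios of the cluster was not tested, and in whole tissue fewer cells of a type and less RNA per cell cannot be told apart.

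The proximal microRNA genes of the same domain served as the nearest comparison. Of 18 listed, 17 had a row and 15 had at least 10 counts in each liver. Together they held 6.32% and 6.54% of the counts, less than the distal cluster by more than the spread between the livers, with a summed ratio of 1.03 (1.03 to 1.04). The highest were Mir431 (23014 and 22113 CPM), Mir127 (19436 and 20999 CPM) and Mir337 (4881 and 5123 CPM). By the same exact binomial test 9 of the 15 were higher in replicate 2, only Mir431 was higher in replicate 1 and 5 did not pass, against backgrounds of 23.5% and 18.4% of all genes tested, and the median ratio was 1.10, near the 1.09 of the cluster. Mir431 and Mir127 come from the strand opposite to Rtl1, and their ratios, 0.961 and 1.08, lay on opposite sides of 1. Whether the proximal and distal genes differed in ratio was not tested. Mir1247, far beyond the cluster near Dio3, had 31.0 and 58.1 CPM, a ratio of 1.87 (1.42 to 2.49).

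A second polycistron, Mir17hg, also held many of the reads. Its 6 genes summed to 6.23% and 6.66% of the counts, with a summed ratio of 1.07 (1.06 to 1.08) and single ratios from 1.04 to 1.17. The highest were Mir17 (31476 and 33264 CPM), Mir20a (17310.1 and 18569 CPM) and Mir18 (8073 and 8403 CPM). By the exact binomial test 4 of the 6 were higher in replicate 2, against 23.5% of all genes tested, and 2 did not pass.

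Within the cluster's interval the annotation lists 9 other plus-strand microRNA genes. Mir654 and Mir453 had no count, Gm27379 had 2 and 1 counts and Mir544 had 5 and 8. The other 5, Mir299a, Mir380, Mir376b, Mir376a and Mir409, have IDs of their own that were not analysed here. At 4 of those loci the table has a gene annotated on the minus strand, and reads were counted opposite to it, that is on the strand of the cluster. On the CPM scale of the same-strand totals they came to 4697 and 5322 at Mir299a, 3213 and 3039 at Mir380, 12576 and 13096 at Mir376a, and 16419 and 18527 at Mir409. These values are in the range of the 10 highest members, and their ratios, 1.13, 0.946, 1.04 and 1.13, lie within the range of the members' ratios. Of the members, only Mir411 had a higher mean than Mir409 (17473), whose range overlapped that of Mir154. The mean at Mir376a (12836) lay between those of Mir379 and Mir487b. With these reads added to the cluster and to the totals, a step chosen after the values were seen, the cluster's share was 16.8%.

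**Figure D4:**
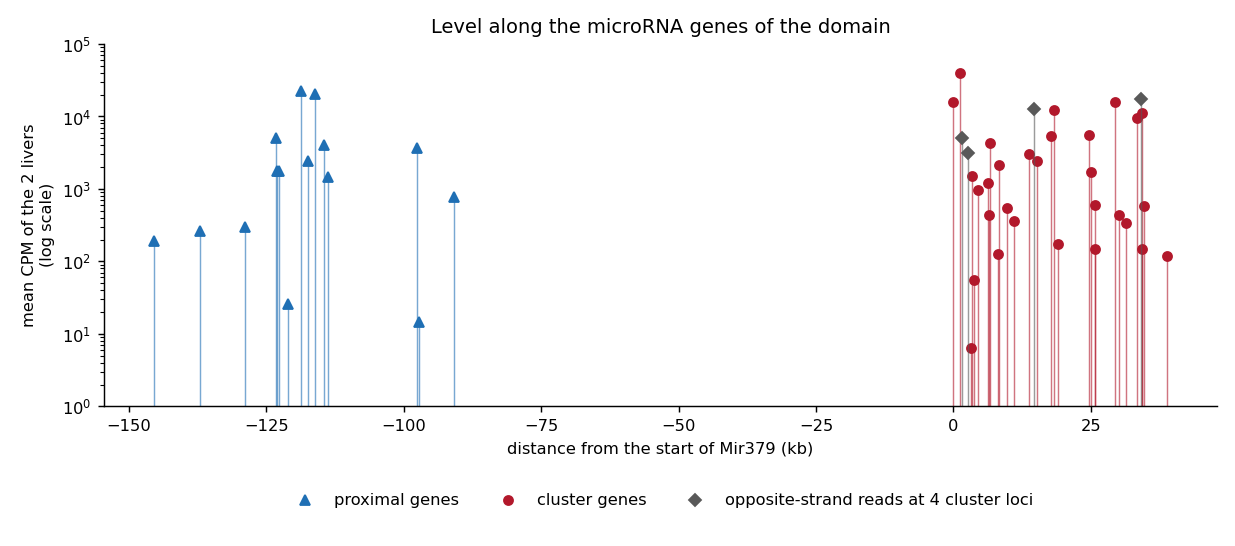
Mean CPM of the 2 livers (log scale, drawn from 1 CPM) against distance from the start of Mir379 in kb, for proximal genes above 1 CPM (triangles), the 30 cluster genes (circles) and reads opposite to 4 minus-strand genes at cluster loci (diamonds, scaled by the same-strand totals). High and low genes are interspersed in both groups, which are separated by a stretch with none of the listed genes.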

How the data were processed

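MicroRNA reads of 2 libraries, 1 from each liver, were analysed. The values the authors deposited are raw counts per gene, not normalized, in tables without a header, with columns for any strand, the same strand and the opposite strand. The assembly mm10 is given per the labels, and annotation M4 per the deposited notes. Which aligner, counter or trimming was used is not given in the sources used here. Rows that name no gene (unmapped 18.6% and 17.7% of 6395680 and 8068090 reads, mapped to several places 34.0% and 33.1%, no gene 10.6% and 10.4%, ambiguous 0) were left out, so microRNAs with identical loci are counted too low.

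Gene IDs were matched to GENCODE M21 (1894 of 1973). CPM are same-strand counts over their library total. A count of 0 allows 3 counts. Intervals are exact 95% binomial ones and cover counting error only, and reads without molecular identifiers are not independent molecules. Genes reaching 10 counts in both libraries entered a two-sided exact binomial test (SciPy 1.17.1, Python 3.11.15, summing outcomes no likelier than the observed one) with Benjamini-Hochberg adjustment. Log2 ratios have 0.5 added to each count. Since there is 1 group, edgeR has no contrast to test. Scaling alternatives used edgeR 4.0.16 and DESeq2 1.42.0 in R 4.3.3, and hairpins were folded with RNAfold 2.7.2. On simulated counts with known folds, the test called 2 of 143 unchanged genes, 34 of 52 changed by 1.25-fold and 51 of 51 changed by 4-fold. The simulated libraries differed by Poisson counting error only, as the test assumes. The simulation therefore cannot show how often genes are called between libraries that vary more.

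Values per library are given for the 10 highest members, the 5 largest ratios in each direction with a mean of at least 100 counts, members sharing a seed, and, of other genes of the domain and Mir17hg, the 3 highest of each list or a ratio over 1.5. The members, lists and rule were chosen with earlier results of these data known. The alternatives were other count minimums, counts regardless of strand, pseudocounts, TMM and DESeq2 scaling, totals without the highest gene or without the members, and each library alone. Those added later were opposite-strand reads, division by length and another two-sided p.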

Additional observations from a re-analysis of the deposited data

Results flagged for a closer look

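Reads opposite to 4 minus-strand genes at cluster loci lie outside the same-strand counts used for the comparison of members, and they exceeded the 3 counts that a count of 0 allows. Replicates 1 and 2 had 11056 and 16674 such reads at Mir299a, 7563 and 9521 at Mir380, 29603 and 41027 at Mir376a, and 38650 and 58040 at Mir409. The same-strand counts of these minus-strand genes were 3 and 10 for Mir299b and 0 in both livers for the other 3 genes.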

How the results depend on the processing

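No paired analysis was possible because there is only 1 group. The number of members differing between the livers stayed between 16 and 23 under all count minimums, strand choices, scalings and both two-sided p-values tried. Mir1193 and Mir496a were the only members higher in replicate 1 each time. The share called over all genes tested moved with the minimum. With no minimum it was 139 of 700 genes, beside 18 of 30 members. With a minimum of 100 counts it was 130 of 215 genes, beside 21 of 29 members. Over all 332 genes tested in the main setting, 78 were higher in replicate 2 and 61 in replicate 1, against 65 and 66 by TMM. The share held by the cluster was 12.2% regardless of strand, 15.2% without the highest gene, 16.8% with the opposite-strand reads and 13.2% to 14.0% with either library alone. None of these shares includes reads mapped to several places. The summed ratio was 1.05 (1.0548) regardless of strand, 1.04 by TMM, 1.05 (1.0468) by DESeq2, 1.08 without the highest gene and 1.07 without the members. Some members close to 1 crossed it: Mir487b (0.999 regardless of strand, 0.990 by TMM, 0.992 by DESeq2), Mir376c (0.997 by TMM, 0.998 by DESeq2) and Mir369 (1.01 without the highest gene, 1.01 without the members). Mir323 and Mir679, with main adjusted p of 0.0454 and 0.0456, passed in the exact binomial test but not with a minimum of 1 count or none, regardless of strand, or by TMM and DESeq2, where Mir134 and Mir410 also did not pass. Others passed that had not: Mir412 with a minimum of 100 counts, without the highest gene and without the members (exact binomial adjusted p from 0.0355 to 0.0440), and Mir487b (ratio 1.02) and Mir377 without the highest gene (exact binomial adjusted p = 0.0182 and 0.0432). The cause of these changes is the altered total or number of genes tested. The depth limits Mir1197 most, whose interval spans 0.281 to 1.23.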
